A study of Mus musculus with 6 samples.

Results

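The 10 genes described here belong to inositol phosphate metabolism and were measured in cultured mouse CD8+ T cells that were treated with the LSD1 inhibitor GSK2879552 (GSK) or with vehicle (Veh). They are Isyna1, Impa1, Impa2, Inpp1, Itpka, Itpkb, Itpkc, Ippk, Inpp4b and Inpp5d, found by their symbols as 10 of the 16281 genes in the count table. Impa2 was chosen by its p-value and fold change in an earlier pass over this same GSK and Veh comparison, where it was among the downregulated genes with the smallest p-values. The other members were named for their enzyme function, also with those results known. Their differences between GSK and Veh are therefore given as a description, with no p-value.

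CD8+ T cells came from the spleens of OT1 mice (strain C57BL/6, genotype Tg(TcraTcrb)1100Mjb), whose T cells bear an introduced receptor that recognises an ovalbumin peptide. All cells underwent 48 h of activation by anti-CD3 and anti-CD28 antibodies with IL-2 added, and then 3 days of growth with IL-2, which brought the culture to day 5. The 3 GSK samples received GSK at 0.5 μM during activation and expansion, and the 3 Veh samples received the vehicle. The antibodies, and not the ovalbumin peptide, stimulated the receptor in both groups, and the age and sex of the mice were not stated for these samples.

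Inositol phosphates begin with the cleavage of a membrane lipid by phospholipase C, which follows T-cell receptor engagement and releases inositol trisphosphate (IP3) and diacylglycerol. IP3 opens calcium channels of the endoplasmic reticulum. Kinases convert it to more highly phosphorylated forms, phosphatases strip it stepwise to free inositol, and the inositol is built back into phosphatidylinositol. A related group of phosphatases acts on the lipids made by phosphoinositide 3-kinase (PI3K), which carry survival and growth signals in T cells.

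The total counts per sample ran from 18288447 to 18918811 in Veh and from 19149909 to 19846720 in GSK. Values below are CPM, counts scaled to a common library total by the TMM method. Of all genes, 11698 passed the filter on low counts and were tested for a difference by edgeR's quasi-likelihood fit, and all 10 members passed it. All 7 markers of CD8 T cells, among them Cd8a, Cd8b1 and Cd3e, were above 1 CPM in every sample, with a summed level of 2999 to 3215 CPM. The 5 myeloid markers summed to 2.79 to 4.68 CPM in Veh and 1.30 to 2.73 CPM in GSK. The 3 NK cell markers summed to 1.58 to 2.36 CPM in Veh and 2.38 to 3.78 CPM in GSK. The 3 CD4 T cell markers summed to 3.78 to 5.69 CPM in Veh and 4.81 to 6.98 CPM in GSK. The 5 B cell markers summed to 5.78 to 7.94 CPM in Veh and 5.53 to 6.53 CPM in GSK. The 3 erythroid markers stayed at or below 0.272 CPM in sum. Of the CD4 and B cell markers, Cd40lg, Ms4a1 and Cd79a, all with few reads, were higher in every GSK sample than in any Veh sample. Cd79b was lower in every GSK sample, and the others overlapped. No marker was at 0 in all samples, and the part of these cells in the results below was not tested. In bulk RNA, fewer cells that express a gene cannot be told apart from less RNA per cell.

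The 10 genes differed widely in level. Per kilobase of annotated exons, the mean level in Veh was 29.1 ± 3.12 CPM per kb (SD, n = 3) for Isyna1, which encodes the synthase that makes inositol phosphate from glucose 6-phosphate. It was 28.9 ± 0.818 CPM per kb for Inpp5d, which encodes the lipid phosphatase SHIP1. The Veh samples of these highest members overlapped. Impa2 followed with 22.4 ± 1.11 CPM per kb and Inpp4b with 17.2 ± 1.35 CPM per kb, and their Veh samples overlapped neither with each other nor with the genes next to them in the order. Impa1 (12.7 ± 0.338 CPM per kb) and Inpp1 (12.1 ± 0.711 CPM per kb) overlapped, and Itpkb lay just below them at 11 ± 0.360 CPM per kb. The low members were Ippk with 3.39 ± 0.373, Itpkc with 1.28 ± 0.0202 and Itpka with 0.539 ± 0.0938 CPM per kb. The highest level was 53.9 times the lowest. With the longest transcript as the length, the same 4 genes were highest and Ippk, Itpkc and Itpka lowest, but the order between them moved by up to 2 ranks and 3 members held their rank. The exon length of Impa2 also includes bases beyond its RefSeq region. A length without them would place Impa2 higher, so its rank depends on the gene model.

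**Figure D1:**
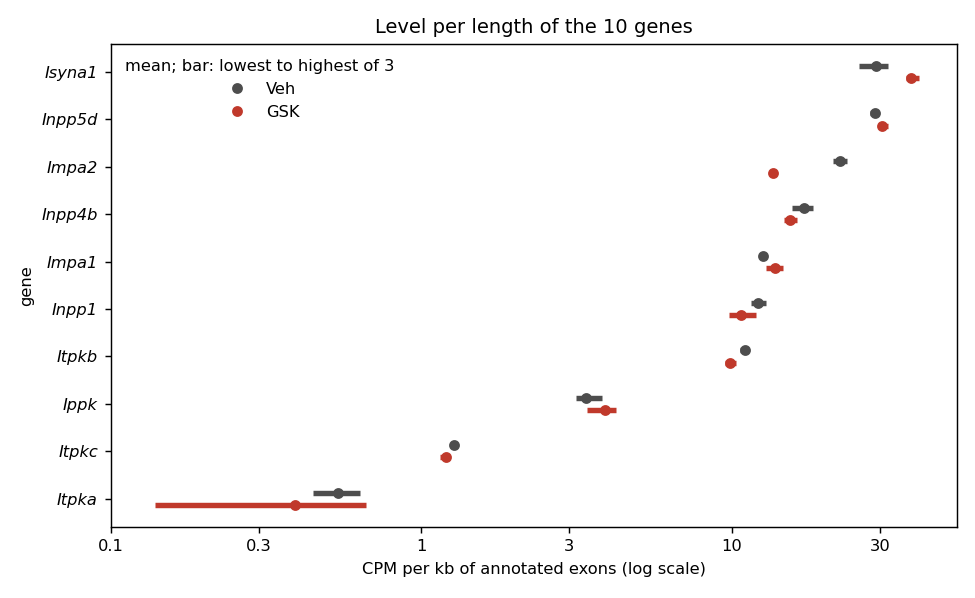
Level of each gene in CPM per kb of annotated exons (log scale), with points for the mean of 3 samples and bars from the lowest to the highest sample, Veh in grey and GSK in red. Impa2 had rank 3 in Veh at 22.4 CPM per kb and rank 5 in GSK at 13.5 CPM per kb, and Itpka was lowest in both groups.

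Against these levels, the difference between GSK and Veh was largest for Impa2, followed by Itpka, which had few reads, and by Isyna1. Of the 10 members, 1 (Impa2) passed an adjusted p of 0.05 together with a fold change of 1.5, where 6.32% of all tested genes did (2.22% higher and 4.09% lower in GSK). At the adjusted p alone 3 members passed (Isyna1 higher, Impa2 and Itpkb lower), where 32.1% of all tested genes did (16.6% higher and 15.5% lower). The samples of the groups did not overlap for 5 members (Impa2, Itpkb and Itpkc lower in GSK, Isyna1 and Inpp5d higher), where this was so for 46.7% of all tested genes (23.0% lower and 23.7% higher). Nothing is read from these counts, since this comparison was known when the genes were chosen. The median log2 fold change was -0.12 over the members and -0.0039 over all tested genes, and 7 members differed by less than 0.25 on the log2 scale.

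**Figure D2:**
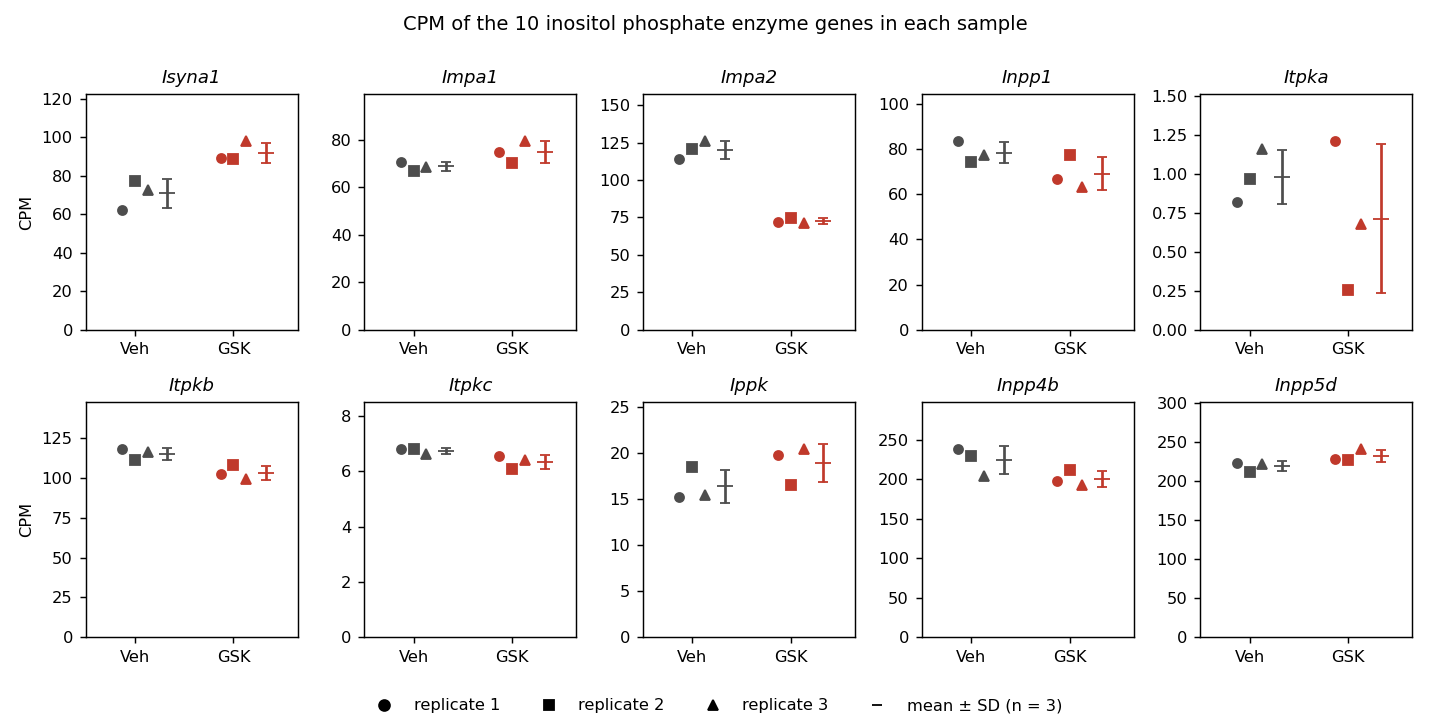
CPM of each of the 10 genes in the 3 Veh and 3 GSK samples, with the replicate number as the symbol and the mean ± SD beside the points. All GSK samples of Impa2, at 71.4 to 74.7 CPM, lay below all Veh samples, at 114 to 126 CPM. Each panel has its own axis from 0.

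The inositol monophosphatases Impa1 and Impa2 remove the last phosphate to give free inositol, and are known as targets of lithium. Impa2 (Entrez gene 114663, on chromosome 18) was at 114, 121 and 126 CPM in Veh replicates 1, 2 and 3 and at 72.0, 74.7 and 71.4 CPM in the GSK replicates. The GSK samples lay within a narrow range, far below the Veh samples. The mean went from 120.3 ± 5.95 to 72.7 ± 1.77 CPM (SD, n = 3), a log2 fold change of -0.73 (standard error 0.0510). With each sample left out in turn this value stayed between -0.76 and -0.69. Its within-group SD of 0.056 on the log2 scale was close to the median of 0.063 over the 3526 tested genes within 2-fold of its level.

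Impa1 (Entrez gene 55980, chromosome 3, 10311956 to 10331439 of GRCm38 as all positions here, minus strand) was at 70.8, 67.1 and 68.6 CPM in the Veh samples and at 74.9, 70.2 and 79.4 CPM in the GSK samples. The groups overlapped at GSK replicate 2, and the log2 fold change was 0.12 (standard error 0.0564). The 2 paralogs thus had log2 fold changes of opposite sign. Their annotated transcripts share no stretch of 31 bases with each other. Of the 31-base stretches of Impa1, 3.98% are shared with Gm38303, a predicted gene that overlaps it and has no entry of its own in the table used. Impa2 shares no such stretch with any other gene. In the GENCODE annotation, 1264 of its exon bases lie opposite B430212C06Rik on the other strand, and the strand setting of the counting was not stated. The RefSeq region of Impa2 (67289247 to 67319216, plus strand) ends before B430212C06Rik begins at 67321209. These bases therefore belong to the longer GENCODE model, whose exons gave the length of Impa2 used above. A length that stopped at the RefSeq end would be shorter and would raise Impa2 per kilobase in both groups. Levels with that length were not computed.

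Summed per kilobase, the monophosphatases were at 34.3, 34.9 and 36.1 CPM per kb in Veh and 27.2, 26.8 and 27.9 CPM per kb in GSK. The share of this sum that came from Impa2 was 63.9% ± 1.63 (SD, n = 3) in Veh and 49.6% ± 2.12 (SD, n = 3) in GSK. Impa2 therefore held the larger part in every Veh sample (62.0% to 65.0%). In GSK the transcripts were close to evenly split (47.7% to 51.9%), but only with annotated exons as the length. A shorter length for Impa2, without the bases beyond its RefSeq region, would raise its share in both groups. With the longest transcript as the length, Impa1 was the higher in GSK, at 16.8 to 19.0 CPM per kb against 14.1 to 14.8 for Impa2. In Veh, Impa2 stayed the higher, at 22.6 to 24.9 CPM per kb against 16.0 to 16.9 for Impa1.

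The enzyme encoded by Isyna1 (Entrez gene 71780, chromosome 8, 70594481 to 70597290, plus strand) catalyses the committed step of inositol synthesis. Isyna1 was at 62.4, 77.4 and 72.5 CPM in the Veh samples and at 89.4, 88.6 and 97.9 CPM in the GSK samples. Every GSK sample was above every Veh sample. Its log2 fold change of 0.38 (standard error 0.0736) was short of the 1.5-fold threshold. Its samples spread more than usual for this level, with a within-group SD of 0.13 on the log2 scale against a median of 0.066 over 3815 genes within 2-fold. No annotated gene shares exon bases with it. Inpp1 (Entrez gene 16329, chromosome 1, 52785425 to 52817688, minus strand), which encodes another lithium-sensitive phosphatase and acts on inositol bisphosphate upstream of Impa1 and Impa2, was at 83.4, 74.4 and 77.5 CPM in the Veh samples and at 66.6, 77.2 and 63.2 CPM in the GSK samples. GSK replicate 2 lay among the Veh samples, and the log2 fold change was -0.18 (standard error 0.0734).

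The 3 IP3 3-kinases convert IP3 to inositol tetrakisphosphate. Itpkb (Entrez gene 320404, chromosome 1, 180330390 to 180424802, plus strand), the form known to be required for T-cell development in mice, was at 118, 111 and 117 CPM in the Veh samples and at 103, 108 and 99.4 CPM in the GSK samples. The groups did not overlap, but GSK replicate 2 came close to Veh replicate 2, and the log2 fold change was -0.16 (standard error 0.0492). Itpkc (chromosome 7, 27207170 to 27228617) was at 6.80, 6.81 and 6.62 CPM in the Veh samples and at 6.56, 6.07 and 6.41 CPM in the GSK samples, which gave a log2 fold change of -0.087 (standard error 0.133). Its groups lay side by side without overlapping, and the difference was smaller than its standard error. Itpka (chromosome 2, 119742337 to 119751253) had 15, 18 and 22 reads in the Veh samples and 23, 5 and 13 reads in the GSK samples, or 0.816 to 1.16 CPM and 0.253 to 1.21 CPM. The GSK samples held both the highest and the lowest value. Its log2 fold change of -0.46 (standard error 0.460) was about as large as its error, and it ran from -1.07 to -0.058 with one sample left out. The summed level per kilobase of the 3 kinases was 12.8 ± 0.346 CPM per kb in Veh and 11.5 ± 0.338 CPM per kb in GSK (SD, n = 3). Itpkb made up 85.9% ± 0.729 (SD, n = 3) of it in Veh and 86.1% ± 2.63 (SD, n = 3) in GSK.

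Ippk (Entrez gene 75678, chromosome 13, 49421198 to 49464574, plus strand) adds the last phosphate to make inositol hexakisphosphate. It was at 15.2, 18.5 and 15.5 CPM in the Veh samples and at 19.8, 16.5 and 20.4 CPM in the GSK samples. Replicate 2 was the highest of the Veh samples and the lowest of the GSK samples, so the groups overlapped, with a log2 fold change of 0.21 (standard error 0.107). Cenpp lies opposite Ippk on the other strand and shares 315 exon bases with it. Cenpp averaged 17.5 ± 0.743 CPM in Veh and 14.6 ± 1.71 CPM in GSK (SD, n = 3), and its log2 fold change of -0.26 had the opposite sign (adjusted p = 0.069). BC024978 likewise lies opposite Itpkc with 1273 shared exon bases, and averaged 7.08 ± 0.597 CPM in Veh and 8.25 ± 1.75 CPM in GSK (SD, n = 3, adjusted p = 0.34).

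The lipid phosphatases Inpp4b and Inpp5d act on lipid products of PI3K. Inpp4b (Entrez gene 234515, chromosome 8, 81342266 to 82134312, plus strand), which removes a phosphate from phosphatidylinositol bisphosphate, was at 238, 230 and 204 CPM in the Veh samples and at 198, 212 and 192 CPM in the GSK samples. The groups overlapped through Veh replicate 3, and the log2 fold change was -0.16 (standard error 0.0588). Inpp5d (Entrez gene 16331, chromosome 1, 87620312 to 87720510, plus strand), which restrains PI3K signalling in blood cells, was at 224, 213 and 223 CPM in the Veh samples and at 229, 227 and 242 CPM in the GSK samples. All GSK samples were higher, but by a log2 fold change of 0.081 (standard error 0.0436), which is about 1.06-fold.

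The GSK samples did not lie equally far from Veh. For 8 of the 10 members, GSK replicate 2 was the nearest of the 3 GSK samples to the Veh mean, and GSK replicate 3 was nearest for 0. Over all tested genes the share of GSK replicate 2 was 48.2% and that of GSK replicate 3 was 22.0%. Without GSK replicate 2, 7 members passed the adjusted p of 0.05 in place of 3, the additional ones being Impa1, Inpp1, Inpp4b and Ippk, and 34.6% of all tested genes did so in place of 32.1%. Without GSK replicate 1, GSK replicate 3 or Veh replicate 1, 2 members (Impa2 and Isyna1) passed it, with 21.7%, 24.6% and 22.7% of all tested genes. Itpkb therefore did not pass in these fits, nor without Veh replicate 3. Nothing is read from these counts of members, since this comparison was known when the genes were chosen. Impa2 was past both thresholds whichever sample was left out, but it was chosen by its p-value and fold change in this same comparison.

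The spread within the groups also differed between members. On the log2 scale the within-group SD was 0.097 for Inpp4b against a median of 0.056 over genes of like level, and 0.12 for Inpp1 against 0.068. Itpkc lay on the other side, with 0.044 against 0.18, and Impa1, at 0.069 against 0.068, matched its level.

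The 5 genes whose profile over the 6 samples was nearest to that of Impa2 were Rnf130, Ddit4, Prkch, Zc4h2 and Insl3. Likeness was the root mean square difference between log2 CPM values after the mean of each gene was subtracted, over 10176 tested genes whose counts averaged 50 or more. It was 0.033 for Rnf130, 0.043 for Ddit4, 0.048 for Prkch, 0.060 for Zc4h2 and 0.061 for Insl3, against a median of 0.38. Rnf130, which encodes a RING finger protein, went from 44.9 ± 1.02 to 27.0 ± 0.109 CPM (SD, n = 3). Ddit4, an inhibitor of mTOR complex signalling, went from 256 ± 10.3 to 157 ± 2.04 CPM, and Prkch, a protein kinase C that diacylglycerol-type signals activate, from 227 ± 9.62 to 140 ± 5.48 CPM. Zc4h2 and Insl3 were below 5 CPM in every sample. All 5 were lower in every GSK sample than in any Veh sample, a pattern that the likeness to Impa2 calls for.

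The surrounding pathway was read from 7 lists written from textbook knowledge, which held 90 other genes of the count table, 81 of them tested. In the edgeR quasi-likelihood fit, with p adjusted by Benjamini-Hochberg over all tested genes, 30 of these (37.0%) passed an adjusted p of 0.05. Among the 30, 11 were higher and 19 lower in GSK. Over all tested genes 32.1% passed, 16.6% higher and 15.5% lower, which are the shares to set beside each list below. Past both thresholds were 4 higher (Pik3r3, Pik3r6, Plch1 and Bpnt1) and 3 lower (Inpp5a, Dgka and Inpp4a), where 6.32% of all tested genes were (2.22% higher and 4.09% lower). The median log2 fold change was -0.037 over the 81 genes and -0.0039 over all tested genes.

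**Figure D3:**
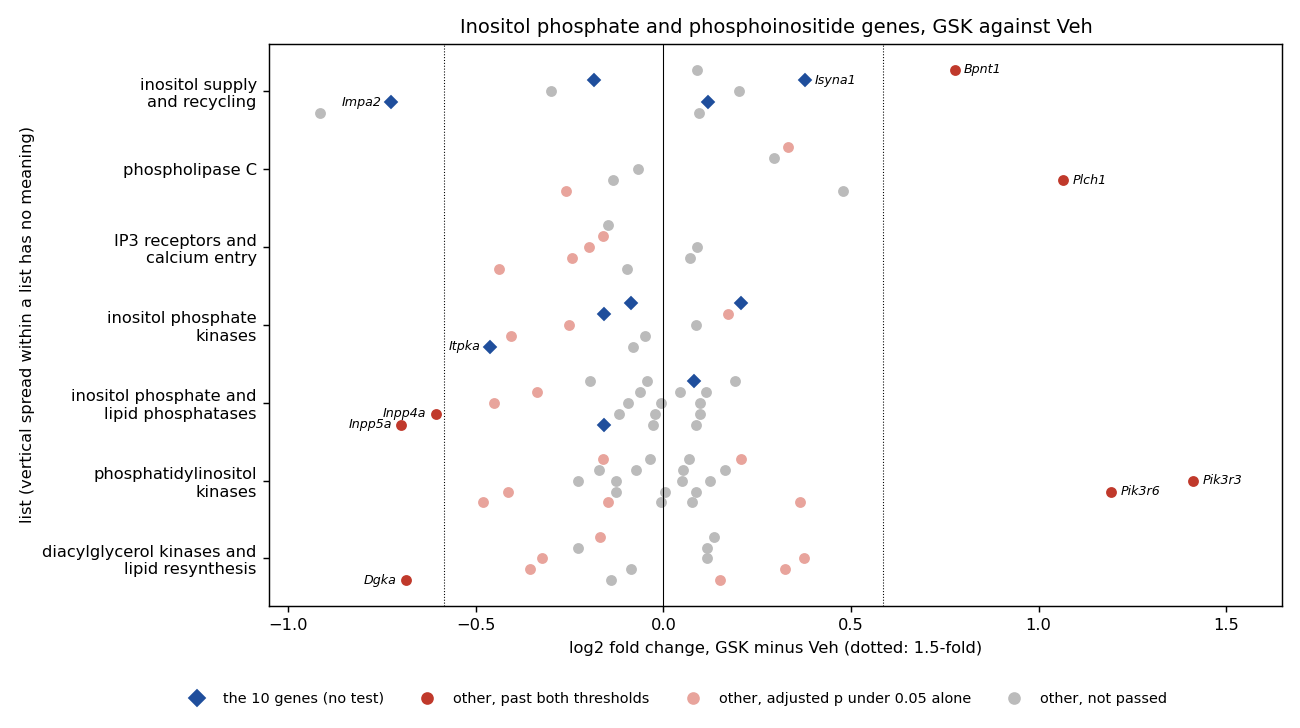
Log2 fold change (GSK minus Veh) of each tested gene in the 7 lists, with the 10 members as blue diamonds and the other genes as circles, coloured by the test (dark red past both thresholds, light red past the adjusted p alone, grey not passed). Impa2 at -0.73 and Isyna1 at 0.38 lie apart from the other well-expressed members, and Pik3r3 at 1.41 lies farthest right.

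Among the genes of inositol supply and recycling, 1 of 6 tested others passed, and it was called higher. Bpnt1 encodes a bisphosphate nucleotidase of the same lithium-sensitive phosphatase family as the monophosphatases. It was at 19.2, 17.8 and 18.4 CPM in the Veh samples and at 31.6, 32.2 and 31 CPM in the GSK samples, and rose by 0.78 on the log2 scale (adjusted p = 1.2e-05, standard error 0.0719). Bpnt1 and Impa2 thus lay on opposite sides, each with groups that were far apart. Cdipt, which joins inositol to the lipid backbone to make phosphatidylinositol, averaged 105 ± 5.95 CPM in Veh and 113 ± 1.96 CPM in GSK (SD, n = 3, adjusted p = 0.17).

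Of 7 tested phospholipase C genes, 2 passed higher and 1 passed lower at the adjusted p, with a median log2 fold change of 0.29. This median is the value of Plcb4, which had only 4 to 16 reads per sample (standard error 0.498, adjusted p = 0.69). Plch1 was at 5.93, 6.38 and 5.20 CPM in the Veh samples and at 13.1, 11.9 and 11.6 CPM in the GSK samples, and rose by 1.06 on the log2 scale (standard error 0.126, adjusted p = 7.4e-05). Plcg1, the form that the T-cell receptor activates, had the highest counts of the list. It fell from 235 ± 9.62 to 196 ± 14.3 CPM (SD, n = 3, log2 fold change -0.26, adjusted p = 0.0032), a difference under 1.5-fold. Plcg1 shares exon bases with Zhx3 and a predicted gene.

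Of 8 genes for IP3 receptors and store-operated calcium entry, 4 were lower and 0 higher at the adjusted p (median log2 fold change -0.15). Over all tested genes, 15.5% were lower and 16.6% higher. In this list 0 genes passed the 1.5-fold threshold. Itpr2, an IP3 receptor, was at 79.6, 77.8 and 71.2 CPM in the Veh samples and at 54.6, 62.1 and 51.9 CPM in the GSK samples (log2 fold change -0.44, adjusted p = 6.5e-04). Itpr3 fell from 170.5 ± 6.25 to 144 ± 4.55 CPM (SD, n = 3, log2 fold change -0.24, adjusted p = 0.0017), and its exons share bases with Itpr3os and a microRNA gene. The other genes of the list that passed were the calcium sensors Stim1 (log2 fold change -0.20, adjusted p = 0.014) and Stim2 (log2 fold change -0.16, adjusted p = 0.037). Itpr1, also an IP3 receptor, did not pass. It averaged 117 ± 7.18 CPM in Veh and 124 ± 9.74 CPM in GSK (SD, n = 3, log2 fold change 0.090, adjusted p = 0.30). Orai1, Orai2 and Orai3 did not pass either.

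Of the 6 other inositol phosphate kinases tested, 1 was higher and 2 lower at the adjusted p (median log2 fold change -0.064). Ip6k1, which makes inositol pyrophosphates from the hexakisphosphate that Ippk supplies, fell from 123 ± 3.07 to 92.8 ± 9.55 CPM (SD, n = 3, log2 fold change -0.41, adjusted p = 7.2e-04). Exons of Ip6k1 share 942 bases with the predicted gene Gm20662.

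Of 18 other phosphatases of inositol polyphosphates and inositol lipids, 4 were lower and 0 higher at the adjusted p, and 14 did not pass (median log2 fold change -0.036). The shares over all tested genes were 15.5% lower and 16.6% higher. Inpp4a, the paralog of Inpp4b, was at 17.6, 16.4 and 18.7 CPM in the Veh samples and at 11.9, 11.4 and 11.4 CPM in the GSK samples, and fell by 0.61 on the log2 scale (standard error 0.0934, adjusted p = 4.4e-04). Without Veh replicate 3 its log2 fold change was -0.56, just short of 1.5-fold. Inpp5a, which removes a phosphate from IP3 itself, was at 6.15, 4.51 and 4.73 CPM in the Veh samples and at 2.73, 3.44 and 3.28 CPM in the GSK samples (log2 fold change -0.70, standard error 0.192, adjusted p = 0.014). Its call was lost without Veh replicate 1 (adjusted p = 0.077) and without GSK replicate 1 (0.064). Exons of Inpp5a share 246 bases with Nkx6-2.

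**Figure D4:**
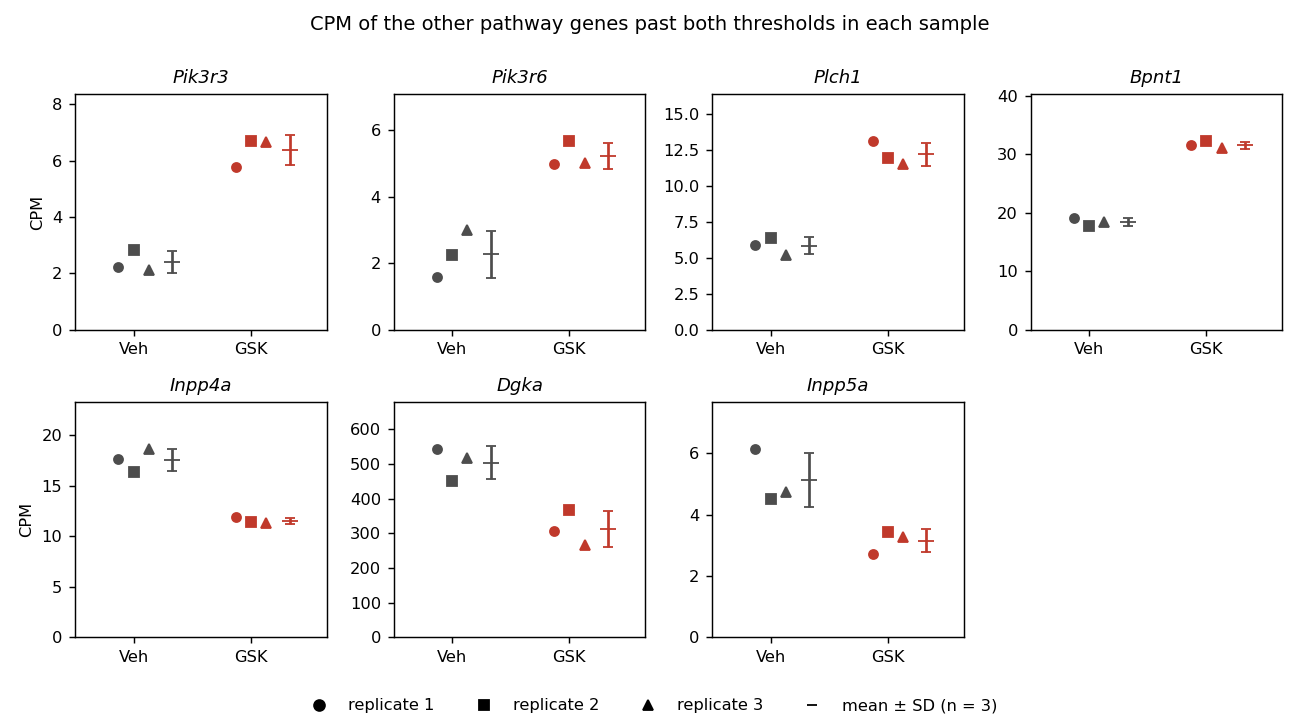
CPM in each sample of the 7 other pathway genes past both thresholds, ordered from the highest to the lowest log2 fold change, with the replicate number as the symbol and the mean ± SD beside the points. Bpnt1, at 17.8 to 19.2 CPM in Veh and 31 to 32.2 CPM in GSK, had tight groups, while Dgka and Inpp5a spread more. Each panel has its own axis from 0.

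Of 23 phosphatidylinositol kinase genes, 4 passed higher and 4 passed lower (median log2 fold change 0.0037). The regulatory subunits of PI3K went both ways. Pik3r1 and Pik3r2 fell by less than 1.5-fold, and Pik3r3 and Pik3r6, at far lower counts than Pik3r1, rose by more. Pik3r1 averaged 182 ± 6.53 CPM in Veh and 130.4 ± 8.67 CPM in GSK (SD, n = 3, log2 difference -0.48, adjusted p = 4.5e-05). Pik3r2 averaged 14.8 ± 1.70 CPM in Veh and 11.1 ± 1.30 CPM in GSK (SD, n = 3, log2 difference -0.41, adjusted p = 0.018). Pik3r3 was at 2.23, 2.84 and 2.1 CPM in the Veh samples and at 5.77, 6.68 and 6.67 CPM in the GSK samples (log2 difference 1.41, adjusted p = 1.4e-04), and 1289 of its exon bases are shared with the predicted gene Gm49337. Pik3r6 was at 1.58, 2.25 and 3.00 CPM in the Veh samples and at 4.99, 5.67 and 5.01 CPM in the GSK samples (log2 difference 1.19, adjusted p = 0.0016). Pik3cd, a catalytic subunit found mainly in leukocytes, averaged 1012 ± 19.0 CPM in Veh and 987 ± 36.3 CPM in GSK (SD, n = 3, adjusted p = 0.46). The catalytic subunits also went both ways. Pik3ca was lower in GSK (log2 difference -0.15, adjusted p = 0.026) and Pik3cb higher (0.36, adjusted p = 0.025). Pik3cg did not pass (adjusted p = 0.92).

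Of 13 genes of diacylglycerol kinases and phosphatidylinositol resynthesis, 3 passed higher and 4 passed lower (median log2 fold change -0.088). Dgka, which converts the diacylglycerol released with IP3 to phosphatidic acid, was at 543, 452 and 516 CPM in the Veh samples and at 306, 368 and 266 CPM in the GSK samples. It fell by 0.69 on the log2 scale (adjusted p = 0.020, standard error 0.142) and did not pass without Veh replicate 1 (adjusted p = 0.065) or without GSK replicate 1 (0.052). Without GSK replicate 3 its log2 fold change was -0.58, just short of 1.5-fold. Exons of Dgka share 105 bases with Pmel.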

How the data were processed

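RNA of 3 GSK and 3 Veh cultures was analysed. Per the labels and the paper's methods, the authors built stranded poly(A)+ libraries, trimmed reads with Trimmomatic, mapped them to GRCm38 with HISAT2 (version 2.1.0) and counted them per gene with HTSeq (version 0.11.2). The deposited values are raw counts. The annotation and strand setting are not given in the sources used here.

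Counts were compared with edgeR (version 4.0.16, R version 4.3.3) by the robust quasi-likelihood test after TMM scaling and filterByExpr, with Benjamini-Hochberg adjustment. A gene was called where its adjusted p was under 0.05 and it differed by over 1.5-fold, and DESeq2 (version 1.42.0) was an alternative. Log2 CPM used an offset of 0.5 counts. Lengths and exon overlaps came from GENCODE M21, coordinates from RefSeq (both GRCm38).

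The members and lists were chosen with earlier results of these data known. Named pathway genes were those called, and in each list the largest change past the adjusted p and the highest level. 1 gene that this rule names is not reported here. Stim1, Stim2, Itpr1, Orai1, Orai2, Orai3, Plcb4, Pik3r1, Pik3r2, Pik3r5, Pik3ca, Pik3cb, Pik3cg, Plcd1 and Miox were named after their values were seen. With 3 samples a group, an exact permutation test of 1 gene cannot give a p under 0.1. The paper names 3 separate OT1 mice, and 3 mice per group, but does not say whether same-numbered cultures share one. If they do, the reported fit leaves that pairing out. The number was therefore not used to pair them in the reported fit. Deviations of same-numbered samples correlated at -0.059, -0.073 and 0.15, and a pairing can be neither shown nor dismissed from this. No replicate pair agreed within sampling noise (chi-square per degree of freedom 4.07 to 9.38).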

Additional observations from a re-analysis of the deposited data

How the results depend on the processing

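Impa2 was the member past both thresholds under RLE size factors, DESeq2, both changes of the low-count filter, the replicate block and with each sample left out. These fits used the samples by which Impa2 was chosen, so this is a description only. When the fold change was tested against 1.5, 0 members, 2 other pathway genes (Pik3r3 and Plch1), 69 higher and 65 lower genes passed. With the adjusted p alone, 3 members, 30 other pathway genes, 1941 higher and 1819 lower genes passed. With one sample left out, calls ran from 224 to 291 genes higher, 403 to 547 lower, 1 to 1 of the members and 5 to 7 of the other pathway genes. With the replicate block, 253 genes were higher and 447 lower, 1 member and 7 other pathway genes were called, the same genes as without it, while at the adjusted p alone Inpp4b passed and Itpkb did not. With the longest transcript as length, 3 of the 10 members held their rank in Veh. Of the log2 fold changes of the other named pathway genes under these alternatives, 4 lost their adjusted p (Dgka and Inpp5a without replicate 1 of either group, values in the text) and 150 stayed on their side. The called pathway genes changed in composition as well. Plcd1 took the place of Inpp4a without Veh replicate 3, and Miox that of Dgka without GSK replicate 3. Miox had only 14, 14 and 7 reads in the Veh samples and 0, 0 and 19 in the GSK samples. Its call therefore rests on GSK samples with no reads. The 109 values of the members moved by less than the spread of their samples. The depth limits Itpka, at 5 to 23 reads per sample.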
